A study of Mus musculus with 3 samples.

Results

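FOG2 peaks that lay outside all annotated genes, at more than 5 kb but at most 100 kb from the nearest protein-coding gene, numbered 1224 of the 6166 peaks in the list, or 1224 of the 6067 on the 19 autosomes. A peak was counted here when its summit, the base of highest signal, was on an autosome and outside the body of every RefSeq gene of any biotype on mm10. They are called distal intergenic peaks below. The study mapped where FOG2 sits on chromatin in the embryonic mouse ventricle at E12.5, an age counted in days of gestation. The FOG2 pulldowns came as 2 libraries and the input as 1 library, all labelled E12.5 and wild type (WT). Per the labels' protocols, the animals were Fog2flbio/flbio;Rosa26BirA/BirA, so FOG2 was biotinylated by the BirA ligase, made from the widely active Rosa26 locus, and was taken up on streptavidin beads. The input is not a pulldown from animals without the tag, so background of the beads was not measured. About 20 ventricles were pooled for each replicate, and whole ventricle holds muscle, endocardium, epicardium and valve tissue. The authors deposited 1 peak list for the pooled pulldowns, so no value below has a replicate spread and no test between libraries could be made. The intervals given below cover counting error only, and peaks are not replicates.

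FOG2, encoded by Zfpm2, is a cofactor with many zinc fingers that is known to reach chromatin through GATA factors, which bind the core GATA. Distal regulatory elements of developmental genes are often found in intergenic sequence, far from the promoters they serve. Distance alone does not show which gene an element acts on, and the nearest gene is used below as an address only.

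The sequence of 4 distal intergenic peaks could be read in part, because their intervals ran into the annotated promoter window of a long noncoding RNA. These windows of 300 bases come from RefSeq on GRCm38.p6, the mm10 assembly. The sequences are shown since GATA sites are the best known address of FOG2; capitals mark each GATA or its reverse complement TATC, and each runs 5′ to 3′ on the strand named.
Peak part at Gm5547 (chr3:105815317-105815539, plus strand): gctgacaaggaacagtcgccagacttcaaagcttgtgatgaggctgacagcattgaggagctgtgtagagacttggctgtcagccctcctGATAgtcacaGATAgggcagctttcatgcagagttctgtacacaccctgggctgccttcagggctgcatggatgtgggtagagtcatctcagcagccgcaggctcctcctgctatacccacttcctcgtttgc
Peak part at BB218582 (chr2:106650315-106650596, minus strand): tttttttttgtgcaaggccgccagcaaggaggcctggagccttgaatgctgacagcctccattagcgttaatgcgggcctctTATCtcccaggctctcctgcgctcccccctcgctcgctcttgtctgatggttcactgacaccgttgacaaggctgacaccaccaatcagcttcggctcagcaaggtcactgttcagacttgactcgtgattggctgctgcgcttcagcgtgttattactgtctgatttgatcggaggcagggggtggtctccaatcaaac
Peak part at Gm36437 (chr17:68987072-68987202, minus strand): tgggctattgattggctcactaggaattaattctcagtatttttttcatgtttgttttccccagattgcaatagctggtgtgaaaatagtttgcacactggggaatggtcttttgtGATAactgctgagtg
Peak part at Gm19277 (chr15:85156288-85156382, minus strand): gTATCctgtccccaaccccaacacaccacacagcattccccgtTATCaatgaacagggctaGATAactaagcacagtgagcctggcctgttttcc

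All 4 stretches held at least 1 GATA core, which 66.5% of the 11311 autosomal promoter windows of long noncoding RNAs also held, and 57.5% of all 31396 autosomal windows. The peak at Gm5547 was 12.2-fold over control and rested on 26 pulldown fragments (95% Poisson interval 17.0 to 38.1), a number worked back from the fold and p-value that the authors deposited for its summit. It lay 14.0 kb from Rap1a, a small GTPase gene, and held 2 GATA cores, at positions 91 and 101 counted from the 5′ end of the 223 bases shown, with its summit at position 64. The peak at BB218582, 42.7 kb from Mpped2, was 6.03-fold (15 fragments, 8.40 to 24.7), and its summit at position 124 lay 3′ of a core at position 83. The peak at Gm36437, 88.5 kb from Epb41l3, was 5.67-fold (8 fragments, 3.45 to 15.8), with its summit at position 59 and a core at position 117. The stretch at Gm19277, 11.9 kb from Ribc2, did not reach its summit and held 3 cores, at positions 2, 44 and 62; this peak was 9.36-fold (19 fragments, 11.4 to 29.7).

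Longer motifs were in fewer of these stretches. The fuller site AGATAA or its reverse complement was found once each at BB218582 and Gm19277, and 14.0% of the long noncoding RNA windows held it (11.2% of all windows). The shares that follow are of the long noncoding RNA windows. The T-box motif GGTGTGA was found once, at Gm36437, against 4.57% of windows. The TEAD motif GGAATG was found once each at Gm36437 and Gm19277, against 16.7% of windows. None of the 4 stretches held the T-box variant GGTGTTA (2.22% of windows), the NKX2-5 motif CACTTAA (2.93%) or its variant CACTTGA (3.27%). The E-box CANNTG was in none of them either, against 78.3% of windows. Every motif was searched on both strands, and GATA lies within AGATAA. The stretches are shorter than the windows, and 4 peaks do not describe the rest.

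Distal intergenic peaks were spread at 2.34 per Mb of the sequence that meets the same positional rule (95% Poisson interval 2.21 to 2.48), against 2.52 per Mb (2.45 to 2.596) for all other autosomal sequence. They made up 20.2% of autosomal peaks (Wilson 95% interval 19.2 to 21.2) on 21.4% of the autosomal length. Among the other positions, density was 2.83 per Mb in coding gene bodies (2.72 to 2.94) and 3.07 per Mb in bodies of noncoding genes only (2.84 to 3.32). It was 2.04 per Mb within 5 kb of a coding gene but outside any gene (1.80 to 2.31), and 1.94 per Mb beyond 100 kb (1.83 to 2.06). Assembly gaps and unmappable sequence were not left out of these lengths, and their part in the differences was not tested.

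Density within the distal range was higher farther out. It was 1.96 per Mb at 5 to 10 kb (1.67 to 2.28, 164 peaks) and 1.98 at 10 to 20 kb (1.73 to 2.26, 222 peaks). It was 2.53 per Mb at 20 to 50 kb (2.298 to 2.77, 445 peaks) and 2.604 at 50 to 100 kb (2.35 to 2.87, 393 peaks). The outermost density was 1.33 times the innermost (95% interval 1.10 to 1.60, from the exact binomial interval of the counts). The median distance to the nearest coding gene body was 33.5 kb (quartiles 16.4 and 56.3).

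**Figure D1:**
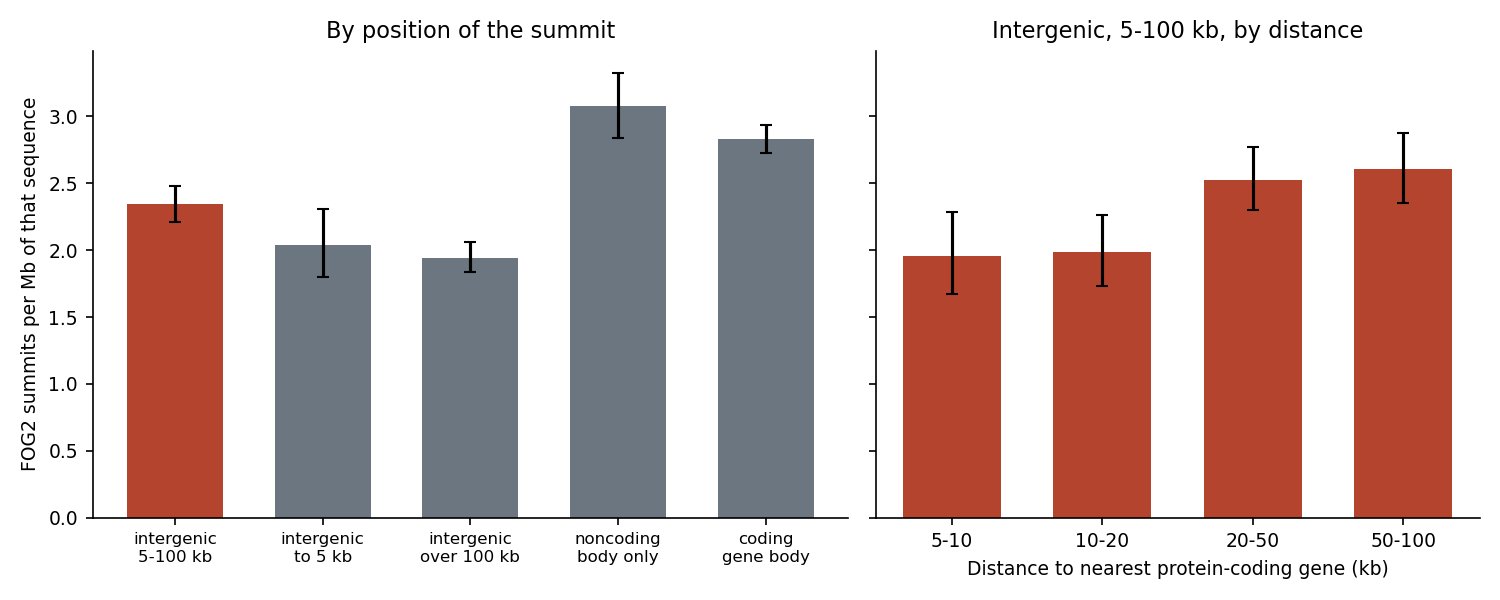
FOG2 summits per Mb of sequence by position (left, distal intergenic peaks in red) and, for the distal intergenic peaks, by distance to the nearest protein-coding gene in kb (right). Bars are densities and whiskers exact 95% Poisson intervals; distal intergenic peaks stood at 2.34 per Mb, between gene bodies at 2.83 and sequence beyond 100 kb at 1.94.

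On the side of the gene, 509 of the 929 peaks whose nearest gene had a known strand lay upstream of it (54.8%, Wilson 95% interval 51.6 to 58.0), and 53.7% of the sequence available to them was upstream. Density was 2.34 per Mb upstream (2.14 to 2.55) and 2.24 downstream (2.03 to 2.47), and the intervals overlap. For 515 of the 1224 peaks (42.1%) a second coding gene, on the other side, also lay within 100 kb.

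Density differed between chromosomes. It was lowest on chromosome 7, at 1.24 per Mb (0.917 to 1.65, 48 peaks), where the imprinted Igf2 and H19 genes lie. It was highest on chromosome 19, at 3.22 per Mb (2.31 to 4.37, 41 peaks), and close to that on chromosome 8, at 3.21 per Mb (2.55 to 3.98, 82 peaks). Hand2, described below, lies on chromosome 8.

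Distal intergenic peaks and the rest had the same median strength to 3 digits. Their median fold over control was 6.39 (quartiles 5.41 and 8.67; order-statistic 95% interval of the median 6.32 to 6.77), against 6.39 (quartiles 5.41 and 8.65) for the 4843 other autosomal peaks. Fold is the authors' peak caller's ratio of pulldown to control at the summit, with 1 added to both sides. In all, 208 distal intergenic peaks reached 10-fold (17.0%, Wilson 95% interval 15.0 to 19.2), near the background of 16.8% over all autosomal peaks. At 20-fold or more stood 27 of them, 2.21%, against 3.10% of the other autosomal peaks. A median peak rested on 12 fragments (6.20 to 21.0), and 40.4% rested on 10 or fewer, so folds near the median could not be ranked at this depth.

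Fold varied little with distance. The median was 6.30 at 5 to 10 kb, 6.47 at 10 to 20 kb, 6.66 at 20 to 50 kb and 6.39 at 50 to 100 kb. Peaks at 10-fold or more made up 14.6% of the innermost bin (Wilson 95% interval 10.0 to 20.9) and 19.3% of the outermost (15.7 to 23.5). Across the 1224 peaks of the pooled list, Spearman's rho between fold and distance was 0.0486, as a description.

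**Figure D2:**
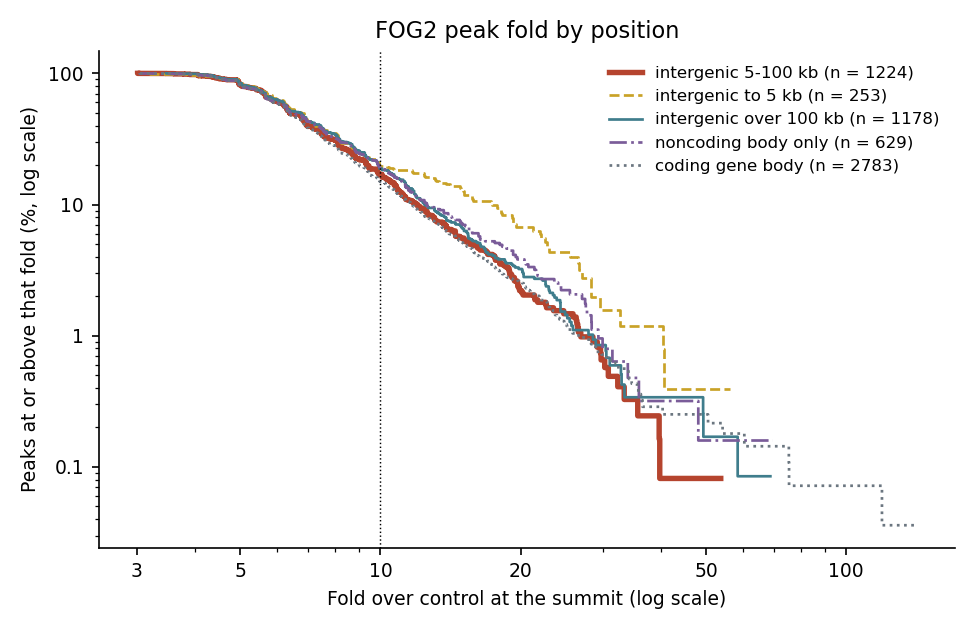
Share of peaks (%, log scale) at or above each fold over control (log scale), for distal intergenic peaks (thick red) and the 4 other positions. The curves run close together to 10-fold (dotted line), where 17.0% of distal intergenic peaks remained, and the highest distal intergenic peak stood at 53.8-fold.

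Wide intervals went with high fold. Distal intergenic peaks had a median width of 258 bp, against 250 bp for other autosomal peaks, and 115 of them (9.40%, Wilson 95% interval 7.89 to 11.2) were 500 bp or wider, near the 9.46% of all autosomal peaks. At the narrowest width, 170 bp, stood 142 of them. The 576 peaks under 250 bp had a median fold of 5.67 and only 8 of them reached 10-fold. The 13 peaks of 1000 bp or more ranged from 11.7- to 39.8-fold, with a median of 28.6. Of the 27 peaks at 20-fold or more, 18 were 500 bp or wider. A peak's width and its fold come from the same pulldown signal, so the relation is not independent evidence of strength.

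The strongest distal intergenic peak was nearest to Ptprd, a receptor tyrosine phosphatase gene. It spanned chr4:75844787-75845502, was 53.8-fold over control with 114 fragments, and lay 96.2 kb from the gene. Next were a peak 47.3 kb upstream of Acan, the gene of the proteoglycan aggrecan, at chr7:79004587-79006571 (39.8-fold, 63 fragments), and one 23.8 kb from the keratin gene Krt80 at chr15:101323874-101324994 (39.7-fold, 62 fragments). None of these had another summit within 10 kb.

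A peak 75.1 kb upstream of Ppp1r12a, which encodes the targeting subunit of myosin phosphatase, was 35.7-fold with 62 fragments. Peaks near Acyp2, an acylphosphatase gene (7.02 kb), and Zfp365 (76.6 kb) were 33.4- and 32.3-fold. Peaks near Stard7, a lipid transfer protein gene (5.36 kb), and Yipf7 (49.1 kb) were 30.9- and 30.3-fold. Control levels at these 5 peaks were between 0.588 and 0.828.

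The remaining strong peaks were near Pitrm1, a mitochondrial peptidase gene (95.9 kb, 29.8-fold), Slc28a3, a nucleoside transporter gene (57.5 kb, 29.7-fold), Mrpl23 (39.8 kb, 29.2-fold) and Rbbp6 (87.4 kb, 28.6-fold). The peak assigned to Mrpl23, a mitochondrial ribosomal protein gene, was the widest distal intergenic peak. It spanned chr7:142580158-142582382, 2225 bp, with its summit 2.36 kb from H19, the maternally expressed noncoding RNA gene at 142575530 to 142578146, and 70.3 kb from Igf2, the growth factor gene imprinted in the opposite sense. Its 134 fragments were the most at any distal intergenic peak, over a control level of 3.62, and the Slc28a3 peak likewise had 119 fragments over 3.04. Of these 12 strongest peaks, 7 were 1000 bp or wider.

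**Figure D3:**
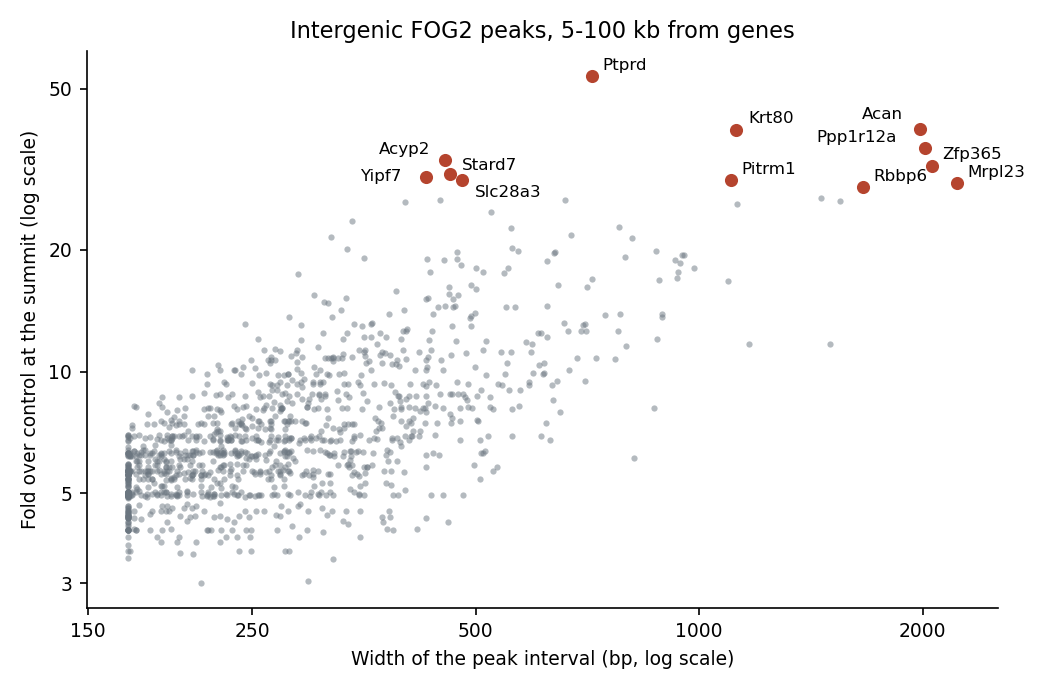
Fold over control at the summit (log scale) against width of the interval in bp (log scale) for the 1224 distal intergenic peaks; the 12 of highest fold are red and carry the name of the nearest protein-coding gene. Wide peaks stood high, and the 13 peaks of 1000 bp or more were all at 11.7-fold or more.

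Distal intergenic peaks were nearest to 990 of 20665 autosomal protein-coding genes (4.79%). Of these genes 817 had 1 peak, 127 had 2, 34 had 3, 9 had 4 and 3 had 5. Genes with a peak had a median of 82.0 kb of intergenic territory, the sequence within the rule that is nearer to them than to any other coding gene, against 8 kb for all autosomal coding genes. Of the 14096 genes that had any territory, 20.2% of the quintile with the most had a peak, and 0.496% of the quintile with the least.

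Genes with a distal intergenic peak also held FOG2 in the gene body in 228 of 990 cases (23.0%), against 8.54% of all autosomal coding genes. These 228 were 12.9% of the 1764 genes with a summit inside. Genes with a distal peak were longer, with a median of 45.5 kb against 17.5 kb for all. Among genes in the quintile with the most territory, 28.2% of the 570 with a distal peak held a summit inside, against 19.8% of the 2249 without.

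Most distal intergenic peaks stood alone. Another FOG2 summit lay within 10 kb of 211 (17.2%, Wilson 95% interval 15.2 to 19.5), near the 18.6% of all autosomal peaks. The 211 had a median fold of 6.93 and the 1013 lone peaks one of 6.37. Chains of summits no more than 10 kb apart numbered 106 with at least 1 distal intergenic peak, and 12 of them held 3 or more such peaks.

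The tightest large group lay upstream of Cdc42bpa, a kinase gene that acts below CDC42 on the cytoskeleton. Its 5 summits sat within 2.66 kb, 54.2 to 56.9 kb from the gene, at 17.0-, 16.8-, 15.1-, 8.82- and 5.67-fold, with control levels of 0.588 to 0.608. Another 5 lay within 7.88 kb near Fam204a, at 4.41- to 7.40-fold, and 4 lay within 8.19 kb near Odf1, a sperm tail protein gene, at 5.41- to 8.36-fold. Summits this close can share fragments, so they are not separate measurements.

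At S1pr1, the gene of a sphingosine-1-phosphate receptor needed in vessel development, the 5 peaks were spread out instead. They lay 22.9, 32.9, 43.1, 72.9 and 87.9 kb from the gene, at 5.31-, 11.96-, 6.37-, 10.1- and 5.90-fold. Each had its nearest other summit at least 10.0 kb away.

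Among genes with 4 peaks, Hddc2 had the highest fold. Its peaks stood at 26.3-, 9.43-, 8.12- and 6.40-fold, all between that gene and Hey2, a ventricular transcription factor gene whose body lay 386.5 kb or more away. Prep, a peptidase gene, had peaks at 12.6-, 8.10-, 6.37- and 6.19-fold, and Cd180, a B cell surface receptor gene, at 8.49-, 7.79-, 6.30- and 4.66-fold. Ptbp2, a splicing factor gene known for its role in neurons, had peaks at 8.19-, 6.30-, 4.97- and 4.70-fold, and Cxcl12, a chemokine gene needed for coronary vessels, at 6.77-, 5.54-, 4.51- and 4.06-fold.

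**Figure D4:**
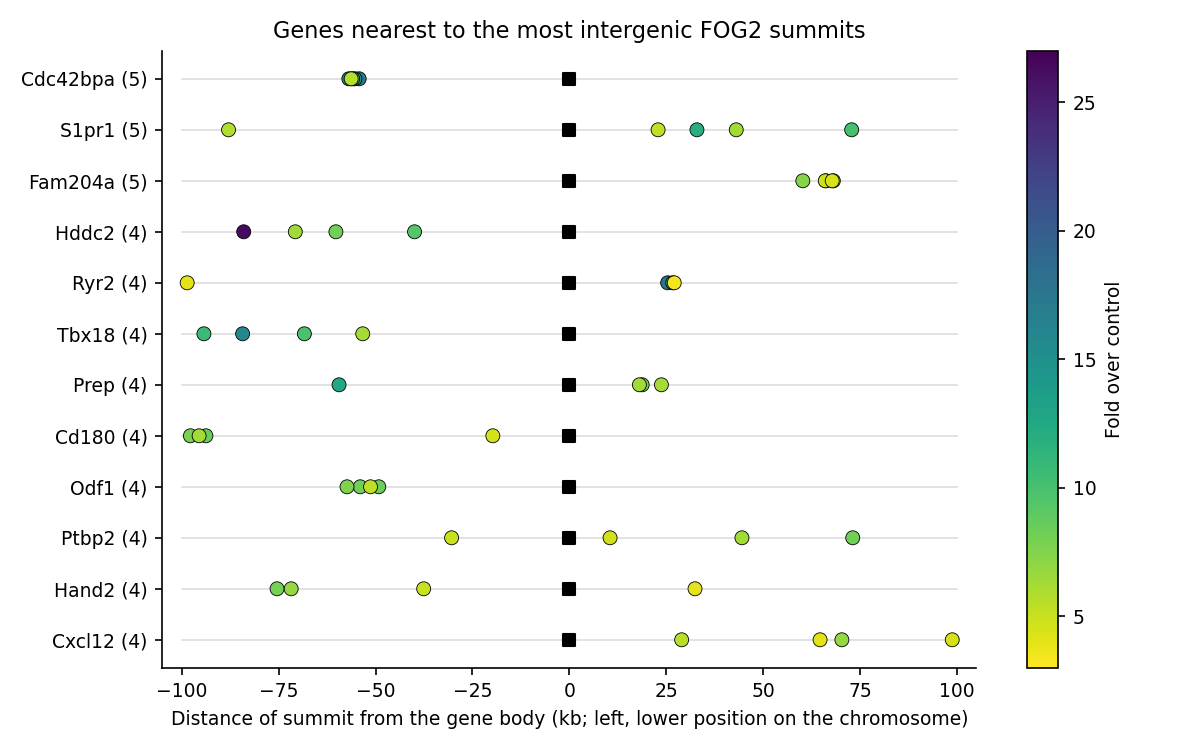
Position of each distal intergenic summit (points, coloured by fold over control) relative to the body of its nearest protein-coding gene (black square, x axis in kb), for the 12 genes with the most such peaks, whose number stands in brackets. Summits at Cdc42bpa, Fam204a and Odf1 sat in tight groups. Those at S1pr1 and Ptbp2 each lay more than 10 kb from any other summit. Tbx18 and Cxcl12 summits were also spread out, apart from a pair within 10 kb at each gene.

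Of 30 cardiac transcription factor genes, 9 were nearest to a distal intergenic peak, against 4.79% of all coding genes. Their 17 peaks had a median fold of 6.79 at a median of 37.6 kb. The genes share 2.21 Mb of territory, on which this is 7.68 peaks per Mb (95% Poisson interval 4.47 to 12.3) beside 2.34 overall. In total 52 of 284 autosomal list genes had a peak. The 78 peaks at them had a median fold of 6.77, beside 6.39 for all distal intergenic peaks. Of the 78 peaks, 14 were at 10-fold or more (17.9%), near the 17.0% of all distal intergenic peaks. The lists are of genes well known in heart or in other tissues; the share of a list describes it and is no test. Summits that lie close together were counted one by one, so the intervals of list densities are too narrow. Whether a list differs from the overall density was not tested.

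Hand2, a basic helix-loop-helix factor required for the right ventricle, had 4 distal intergenic peaks and none in its short gene body. Those at 75.4, 71.8 and 37.6 kb upstream were 8.02-, 6.77- and 4.96-fold, and one 32.4 kb downstream was 4.06-fold (12, 14, 13 and 8 fragments). The counting intervals of their fragments overlap, so no order in fragments was detectable. Their control levels were 0.621, 1.22, 1.83 and 1.22, and the order of their folds was not tested. Hopx, a homeodomain protein gene of cardiac muscle, had a pair 0.712 kb apart, 15.0 and 15.7 kb upstream, at 10.8- and 9.81-fold.

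Myocd, the coactivator of SRF, had peaks 96.1, 50.9 and 34.0 kb outside the gene at 9.32-, 5.90- and 5.81-fold, and the last stood over a control level of 3.65. Tbx5, a T-box factor gene of the atria and left ventricle, had 1 at chr5:119907829-119908141, 22.8 kb outside (8.70-fold, 14 fragments, 7.65 to 23.5). Gata4 had 1, 12.1 kb outside (7.56-fold, 11 fragments, 5.49 to 19.7), and Gata6, another GATA factor gene, had 2, at 48.8 and 57.3 kb (6.39- and 4.06-fold). Nkx2-5 and Tbx3 had no distal intergenic peak, on territories of only 0.021 and 0.08 Mb. The nearest summit outside Nkx2-5 lay 2.35 kb away, and that outside Tbx3 lay in the noncoding gene Tbx3os1.

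Chamber identity genes gave 7 of 19, against 4.79% of all coding genes. Their 11 peaks had a median of 7.22-fold, beside 6.39 for all distal intergenic peaks, and stood at 9.23 per Mb of their territory (4.61 to 16.5). Irx1, a homeobox gene of the ventricular Iroquois group, had a peak 81.4 kb away at 12.6-fold (19 fragments, 11.4 to 29.7) and another 60.1 kb away on its other side at 5.82-fold. Irx4, the ventricular Iroquois gene, had 3, at 8.12-, 4.95- and 4.66-fold. Fhl2, a LIM protein gene, had 2 upstream, at 49.5 kb (12.4-fold) and 43.8 kb (4.96-fold). Nppb, a natriuretic peptide gene, had 1, 16.2 kb upstream at chr4:147969296-147969716 (7.97-fold, 12 fragments), and the nearest other summit was 909.8 kb away. The neighbouring Nppa had none of its own, with only 0.002 Mb of territory.

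Of 31 sarcomere and Z-disc genes 5 had a distal intergenic peak, against 4.79% of all coding genes, and 15 had a summit in the gene body, against 8.54% of all. The first count was 3 with −log10 q of at least 5. Pdlim5, a Z-disc protein gene, had 2 upstream at 34.5 and 45.8 kb (13.6-fold with 31 fragments and 9.92-fold with 21). Ankrd1, a stress-responsive Z-disc gene, had 2 near 10 kb upstream at 8.10- and 4.92-fold, Csrp3, the muscle LIM protein gene, 1 at 5.62 kb (7.28-fold) and Nebl, the nebulette gene, 1 at 25.7 kb (5.04-fold). Myh6 had none, and its territory within the rule was 0 Mb.

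Of 18 calcium handling genes 3 had a distal intergenic peak and 13 a summit in the gene body, beside the same 4.79% and 8.54% of all coding genes. Ryr2, the calcium release channel gene, had 4: 3 within 1.70 kb, 25.4, 26.7 and 27.1 kb upstream, at 17.6-fold (44 fragments, 32.0 to 59.1), 11.0-fold (30 fragments) and 3.46-fold, and 1 at 98.6 kb downstream at 4.06-fold. Atp2a2, the calcium pump gene, had 1 at chr5:122520876-122521368 (12.9-fold, 28 fragments, 18.6 to 40.5), 18.96 kb away, with Ift81 at 19.1 kb on the other side. Slc8a1, the sodium-calcium exchanger gene, had 1 at 43.4 kb (4.95-fold). The gene-body counts given for this and the other lists were not adjusted for gene length. The body of Ryr2 spans 553.8 kb, against a median of 17.5 kb for all autosomal coding genes.

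Ion channel genes gave 2 of 24: Kcnk3, a background potassium channel gene, at 18.0 kb (22.7-fold, 57 fragments, 43.2 to 73.9), and Kcnj2, an inward rectifier gene, at 67.4 kb (5.80-fold). Hcn4 had none, with 0.001 Mb of territory. Of 20 energy metabolism genes 1 had a peak, Ppargc1b, a coactivator gene, with a pair at 9.20- and 6.08-fold. The energy share of 5.0% is near the 4.79% of all coding genes, and the ion channel share was 8.33%. Per Mb of territory the order was the other way, at 3.60 peaks for energy genes (0.436 to 13.0) and 2.04 for ion channel genes (0.247 to 7.38). These intervals overlap, and both include the 2.34 per Mb of all distal intergenic peaks. A gene-body summit was held by 9 of 24 ion channel and 9 of 20 energy genes, against 8.54% of all coding genes.

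Signalling genes gave 11 of 24, against 4.79% of all coding genes. The count was 7 of 24 either with −log10 q of at least 5 or with a minimum distance of 10 kb. The 11 genes had 13 peaks at a median of 6.38-fold, and the list stood at 7.30 per Mb (3.89 to 12.49). Vegfa, the vessel growth factor gene, had 3 downstream, at 33.6 kb (19.9-fold, 31 fragments), 16.5 kb (6.93-fold) and 7.77 kb (5.86-fold). Bmp5 had 1 at 6.16 kb upstream (15.2-fold, 33 fragments), Bmp10, the trabecular BMP ligand gene, 1 at 8.90 kb downstream (7.86-fold) and Wnt2, a WNT ligand gene, 1 at 8.45 kb downstream (7.56-fold). Bmp10 was also counted among the chamber identity genes. A summit in the gene body was held by 3 genes of this list, against 8.54% of all coding genes.

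Markers of other cells of the ventricle also had distal intergenic peaks, counted beside the 4.79% of all coding genes that had one. Of 14 epicardial genes 4 did (2 with −log10 q of at least 5 or a maximum distance of 50 kb). They were led by Tbx18, an epicardial T-box gene, with 4 peaks downstream. Its peaks lay at 84.3 kb (15.8-fold, 36 fragments), 94.3 kb (10.8-fold), 68.4 kb (9.86-fold) and 53.3 kb (6.25-fold). Sema3d, Bnc1 and Aldh1a2 had 1 each, at 6.32-, 5.47- and 4.25-fold. Of 20 endocardial and endothelial genes 2 did: Erg, an ETS factor gene, at 17.6-fold (27 fragments) 13.6 kb upstream, and Npr3, a natriuretic peptide clearance receptor gene, at 8.64- and 6.77-fold. Of 16 valve mesenchyme and fibroblast genes 4 did (2 under either stricter threshold or the 50 kb maximum), namely Has2 (7.67-fold), Sox9 (6.22-fold), Postn (4.94-fold) and Col3a1 (4.87-fold). Per Mb of territory, epicardial genes stood at 8.70 peaks (3.50 to 17.9), above the 2.34 of all distal intergenic peaks. Endocardial and endothelial genes stood at 3.36 (0.692 to 9.81) and valve genes at 3.11 (0.846 to 7.95). The intervals of these latter lists include 2.34, so their shares above 4.79% do not show a raised density. In pooled tissue, the cell type that carried a peak cannot be told apart.

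Lists of genes known from other tissues or from all cells were counted the same way, beside the 4.79% of all coding genes. Liver genes gave 0 of 16, which allows a share of up to 18.8%. Neuronal genes gave 1 of 21 (4.76%), near the share of all coding genes, with Neurog1 at 6.17-fold. Blood genes gave 2 of 16: Runx1, a haematopoietic factor gene, with 3 upstream led by 16.2-fold at 97.9 kb, and Tfrc, the transferrin receptor gene, at 6.22-fold. Housekeeping genes gave 3 of 18, Eef1a1 (8.49-fold), Actb (7.54-fold) and Tfrc again, on 0.237 Mb of territory, or 12.7 per Mb (2.61 to 37.0). Blood genes stood at 9.95 per Mb (2.71 to 25.5) and neuronal genes at 0.903 (0.0229 to 5.03), beside 2.34 overall. The housekeeping and blood densities were the highest of the 14 lists, above those of the heart lists, on wide intervals.

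**Figure D5:**
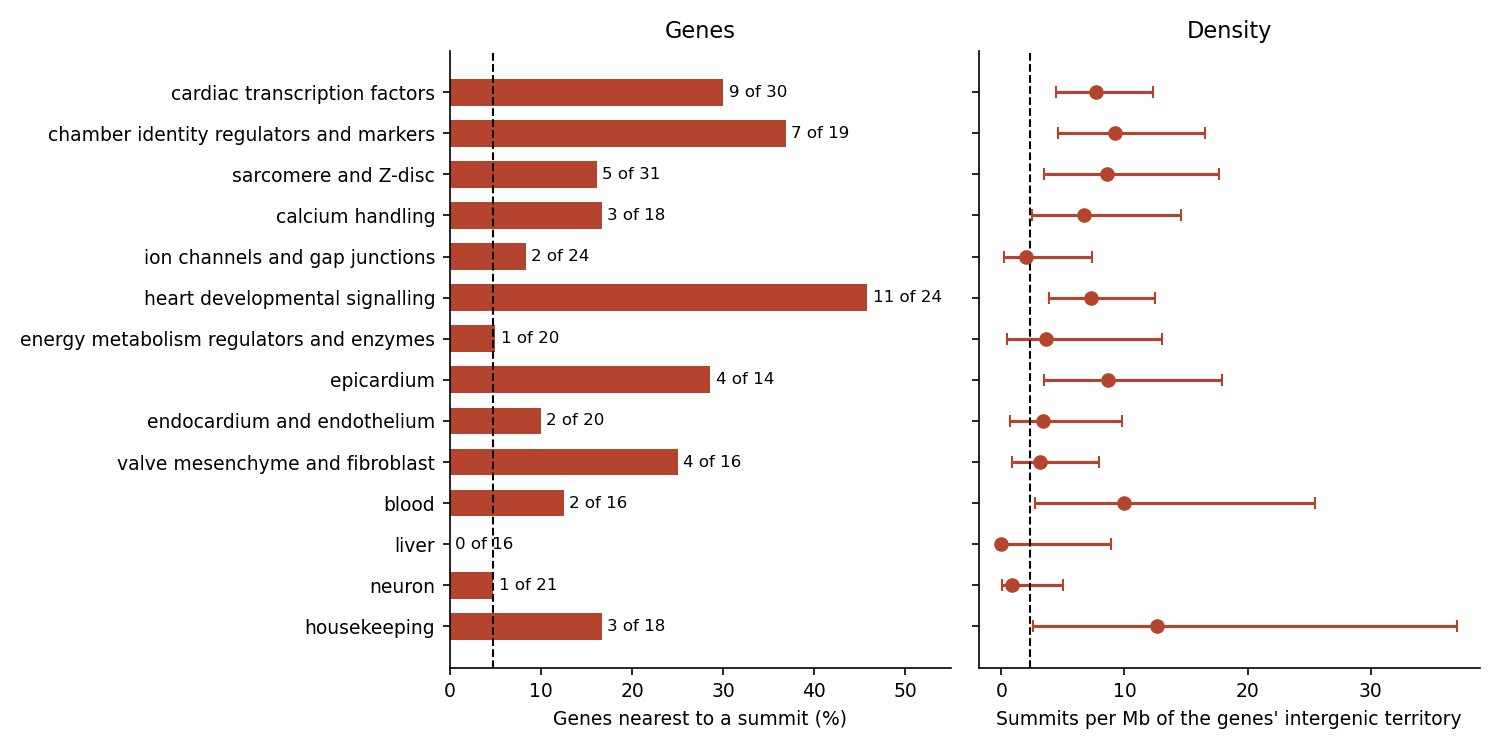
Share of each list's autosomal genes that were nearest to a distal intergenic peak (left, %, counts beside the bars, dashed line at the 4.79% of all coding genes) and peaks per Mb of the genes' intergenic territory (right, exact 95% Poisson intervals, dashed line at 2.34). Shares ran from 0 of 16 liver genes to 11 of 24 signalling genes. Most density intervals were wide, yet still too narrow because close summits were counted one by one. A list's place against the dashed line is no test, and the order of the lists changes with the settings.

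The nearest noncoding gene was a median of 21.2 kb from the summit, and 220 distal intergenic peaks (18.0%) lay within 5 kb of one. Only the nearest was classed by type: it was a long noncoding RNA gene for 150 of these peaks and a pseudogene for 54. For the intergenic peaks beyond 100 kb the median was 40.2 kb and the share 8.40%. The share of the sequence itself that lies within 5 kb of a noncoding gene was not measured, so the shares are descriptions only. The stronger peak at Fhl2 sat 0.348 kb from Gm29040, and the peak at Bmp5 sat 0.043 kb from Gm39373. For 4 peaks the nearest noncoding gene was a microRNA gene within 5 kb: a pair near Mir5112, at 19.2- and 18.0-fold, 1 near Mir6347 at 4.94-fold, and 1 near Mir30a. The Mir30a peak, named after its values were seen, lay 1.27 kb from the hairpin and 95.4 kb from the coding gene Ogfrl1, at 5.13-fold (8 fragments, 3.45 to 15.8). The mature RNA of this member of the miR-30 family, known to be abundant in heart, is shown from RefSeq (GRCm38.p6) with its seed, bases 2 to 8, in capitals.
mmu-miR-30a-5p: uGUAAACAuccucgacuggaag

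At the lower limit of the distance rule, the closest peaks that met it lay near Skor1 (5.02 kb, 6.08-fold), Mtnr1b (5.05 kb, 13.8-fold) and Itga9 (5.06 kb, 14.5-fold), and the closest that missed it lay near Svep1 (4.96 kb, 22.0-fold), Ripor2 (4.94 kb, 4.51-fold) and Mrpl36 (4.92 kb, 8.70-fold). At the upper limit, those that met it lay near Etnk1 (99.8 kb, 6.22-fold), Gm8882 (99.6 kb, 11.96-fold) and Magi3 (99.2 kb, 6.99-fold), and those that missed it lay near Rxfp2 (8.19-fold), Tbx20 (11.9-fold) and again Magi3 (6.61-fold).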

How the data were processed

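The submitters' processing notes name Bowtie2 2.3.2, SAMtools 1.5, Picard, MACS2 2.1.1 and the build mm10. The sources used here do not give the settings or the caller's control. The authors deposited 1 list for the pooled pulldowns, with blacklisted regions left out, going by its name. Its fold is a linear ratio at the summit, the caller's −log10 p and −log10 q were deposited by the authors for that summit, and a display score was deposited by the authors and not used further.

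Summits were placed against RefSeq genes of GRCm38.p6 with pandas 2.3.3 and numpy 2.4.6. Lengths of sequence lay between the first and last gene of each chromosome; territories per gene used a 1 kb grid. Strand came from the RefSeq promoter table for 16457 of 20665 autosomal coding genes. The antibody label is FOG2 and the genotype label WT, while the labels' protocols describe biotinylated FOG2 on streptavidin; the protocols were followed. Fragments and control levels were solved from fold and −log10 p as whole Poisson counts (scipy 1.17.1); a count matched within 0.001 in all 6166 peaks, with a second match in 17 distal intergenic peaks. The steps were tested on simulated data. Library depth is unknown from the list. Motifs at all summits, which were planned, need the genome's sequence; they were not analysed here.

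The text names the 12 peaks highest in fold, the genes with most peaks (10, with ties), up to 4 leading genes per list, 12 fixed genes and the 3 peaks at each side of each limit. The peaks, lists and rules were chosen with earlier results of these data known.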

Additional observations from a re-analysis of the deposited data

How the results depend on the processing

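No result was tested, so only sizes can move. With peaks of −log10 q of at least 5, density was 1.56 per Mb and 15.2% of distal intergenic peaks had a neighbour within 10 kb. With a fold of at least 5, density was 1.92 per Mb. These thresholds remove peaks from the same length of sequence, so density could only fall. The density of other sequence at these thresholds is not given, so they do not show whether the contrast with it holds. The share with a neighbour was 12.7% within 5 kb and 28.2% within 25 kb. The number of peaks (817 to 1541), of genes (687 to 1374) and of list genes (41 to 64) stayed within 1.5 times the reported values under all alternatives, which were both stricter thresholds, protein-coding bodies only, a minimum of 10 kb, a maximum of 50 kb and, for genes, both flanking genes. Of 84 counts for single lists 15 moved by more. With −log10 q of at least 5, signalling genes with a peak numbered 7 (11 reported), sarcomere 3 (5), epicardial 2 (4), valve 2 (4) and ion channel genes 1 (2). With a fold of at least 5, valve genes numbered 2. With a minimum of 10 kb, signalling genes numbered 7. With a maximum of 50 kb, epicardial and valve genes numbered 2 each, and endothelial (2 reported) and ion channel genes 1 each. With protein-coding bodies only, energy genes numbered 2 (1) and neuronal genes 3 (1). With both flanking genes, ion channel genes numbered 5 and liver genes 1 (0). Chamber identity genes, 7 of 19 as reported, had a larger share than signalling genes with −log10 q of at least 5 (7), with a minimum of 10 kb (6) and with both flanking genes (9 of 19 against 11 of 24). Bmp10 is on both lists, so as reported it was counted in each. The causes of these moves were not tested. The ratio of median folds, distal intergenic over other peaks, ranged from 0.990 to 1.00, also as −log10 q and, chosen after seeing the data, as fragments or for peaks under 500 bp. The ratio of outermost to innermost density was 1.43 and 1.49 under the stricter thresholds. Leaving out a replicate was not possible, and no paired analysis was possible because the list pools both replicates. Sequence gaps could not be removed without a genome.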
